A study of Mus musculus with 2 samples.

Results

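mir-210 is a small hairpin RNA whose 2 arms, miR-210-5p and miR-210-3p, are processed into mature miRNAs. Both were taken by name from the deposited miRNA tables of mouse helper T cells. They are 2 of 986 miRNAs listed for control Th0 cells and 2 of 1012 listed for cells cultured toward the Th17 state, the lineage that makes interleukin-17. The starting cells were naive CD4+CD62L+ T cells, taken from spleens of female C57BL/6 mice and grown in medium with 10% serum. Both cultures held anti-CD28 at 1 µg/ml and blocking antibodies to IL-4 and IFN-γ at 5 µg/ml each. Th17 cultures also received blocking antibodies to IL-2 and IL-12, both at 5 µg/ml. Their cytokines were 2 ng/ml of TGF-β, 10 ng/ml of IL-1β and 40 ng/ml each of IL-6 and IL-23, and the culture ran for 6 to 7 days. The sources used here do not give the age of the mice, the length of the Th0 culture or the oxygen level. Culture time, the Th17 cytokines and the blocking antibodies to IL-2 and IL-12 cannot be told apart in any ratio below.

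As background, mir-210 is the miRNA most widely used as a marker of low oxygen, because the transcription factor HIF-1 switches its gene on. Its 3p arm is the usual guide, the strand loaded into Argonaute to repress messenger RNAs, and known targets include the iron-sulfur scaffold proteins ISCU1 and ISCU2. In mouse CD4+ T cells miR-210 is reported to be induced by stimulation through the T cell receptor and CD28, to repress Hif1a, and to restrain Th17 differentiation under low oxygen. HIF-1 itself promotes the Th17 program. The 5p arm is the usual passenger, the strand more often discarded, and far less is known about it.

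The RefSeq mature sequences of both arms (build GRCm38.p6) are shown because the libraries differed in how reads were divided between them. Capitals mark the seed, bases 2 to 8, which pairs with target messenger RNAs.
miR-210-5p: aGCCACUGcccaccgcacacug
miR-210-3p: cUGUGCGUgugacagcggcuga
Both arms are 22 bases long. The seeds of the arms differ, and no other name among the 1679 mature miRNAs of that RefSeq table carried either seed. G and C made up 15 of the bases in miR-210-5p (68.2%) and 14 in miR-210-3p (63.6%), against a median of 52.2% over the table.

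The full hairpin is shown next to place the arms, which are in capitals, 5p first.
Mir210 hairpin: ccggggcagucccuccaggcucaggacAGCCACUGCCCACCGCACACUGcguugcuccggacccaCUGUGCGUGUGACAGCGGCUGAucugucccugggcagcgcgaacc
This hairpin of 110 bases lies on the minus strand at chr7:141221384-141221493 in GRCm38, the assembly that mm10 names. miR-210-5p spans 141221445 to 141221466 and miR-210-3p 141221407 to 141221428. In GENCODE M21 the hairpin is a gene of its own that overlapped no other annotated gene, so it is neither exonic nor intronic to a host there. The nearest genes were Rassf7, 2.73 kb away, and Phrf1, 7.29 kb away, both on the plus strand. No other annotated miRNA gene was close: the nearest, Mir7063, was 399 kb away. Folding the sequence in RNAfold gave a minimum free energy of -48.0 kcal/mol, with 16 bases of each arm paired to the other arm and 16 bases lying between the arms. Neither arm was listed with a second precursor, so no reads had to be divided between loci.

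Each group is 1 library. The labels state triplicates, but the tables hold 1 column of reads per group, and the sources used here do not say how replicates were combined. The listed reads totalled 8358010 in Th0 and 11975371 in Th17. Levels below are reads per 1000000 of these listed reads (CPM). All intervals are exact 95% intervals of counting error within these libraries. Reads amplified by PCR, with no molecular identifiers, may count a molecule more than once, so these intervals cover counting error only. The spread between cultures is not in them, and no test of the conditions was possible. The labelled cell type was checked against marker miRNAs: the 5 lymphoid and blood markers, among them miR-142a-5p, reached a sum of 87957 CPM in the Th0 library and 104968 CPM in the Th17 library. They did not move alike: 3 were higher in Th17, and 2, miR-142a-3p and miR-342-3p, were lower. Of these sums, miR-142a-5p made up 58347 CPM in Th0 and 65898 CPM in Th17. In the same order, the 4 stromal markers summed to 2.15 and 19.6 CPM, the myeloid marker miR-223-3p stood at 3.35 and 6.76 CPM, the 2 endothelial markers summed to 191 and 85.9 CPM and the 6 epithelial markers to 387 and 208 CPM. The neural miR-9-5p had 116 and 57 reads, the erythroid miR-451a 6 and 24, and the muscle miRNA miR-133a-3p 2 and 10. The part of these other cell types in the mir-210 values was not tested. Of the same marker lists, in Th0 the erythroid miR-144-3p, the liver miRNA miR-122-5p, the muscle miRNA miR-206-3p, the neural miR-124-3p and the epithelial miR-205-5p were at 0 reads, for which a limit of 3 reads is 0.359 CPM each. All of them had 1 or 2 reads in Th17, and the muscle miRNA miR-1a-3p was listed in neither library.

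The arms of mir-210 behaved differently. The passenger arm, miR-210-5p, was higher in Th17, the guide arm, miR-210-3p, was close to its Th0 level, and their sum was nearly the same in both libraries. miR-210-5p had 589 reads in Th0, or 70.5 CPM (64.9 to 76.4), and 2478 reads in Th17, or 207 CPM (199 to 215). The Th17 library was the higher one and the counting intervals did not overlap. The ratio of Th17 over Th0 was 2.94 (2.68 to 3.22), a log2 ratio of 1.55. In RNA from whole cultures, more cells with a miRNA and more of it per cell cannot be told apart.

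miR-210-3p, the arm reported to restrain Th17 cells, had 17075 reads in Th0, or 2043 CPM (2012 to 2074). It had 23414 reads in Th17, or 1955 CPM (1930 to 1980). The Th17 library was the lower one by a narrow margin, 1.04-fold (1.02 to 1.07), a log2 ratio of -0.063. That direction depended on the scaling: it was -0.12 with a total that omits the 11 most abundant miRNAs, and 0.015 (-0.014 to 0.043) with DESeq2 size factors.

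Summed over both arms, the hairpin had 17664 reads in Th0 and 25892 in Th17, which is 2113 and 2162 CPM. The log2 ratio of 0.033 (0.0052 to 0.061) was also within the range that the choice of scaling covers, from -0.024 to 0.11. Th17 minus Th0 was 136 CPM for miR-210-5p, -87.8 CPM for miR-210-3p and 48.7 CPM for the sum. The hairpin took 0.211% of the listed reads in Th0 and 0.216% in Th17.

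**Figure D1:**
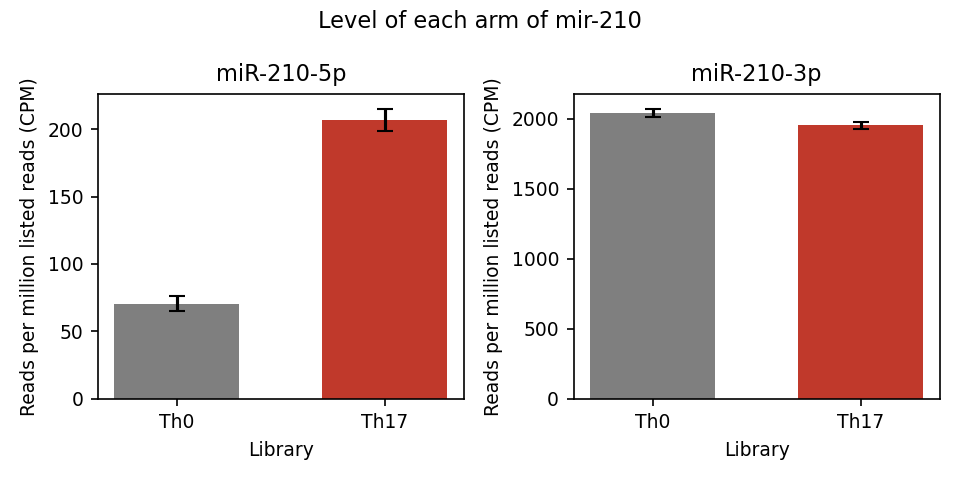
Level of miR-210-5p (left) and miR-210-3p (right) in CPM, reads per 1000000 listed reads, in the Th0 and the Th17 library. Bars are the single library of each group and error bars its exact 95% Poisson interval. miR-210-5p stood at 70.5 and 207 CPM, and miR-210-3p at 2043 and 1955 CPM.

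The background for these ratios is the 298 miRNAs whose mean over both libraries reached 10 CPM, a minimum that both arms passed. A miRNA was called when its level differed at least 2-fold with an interval excluding 1. By that rule 6.71% of the 298 were called higher in Th17 and 13.1% lower. miR-210-5p was called higher and miR-210-3p was called in neither direction. miR-210-5p held rank 10 of the 298 by ratio. Ranked directly above it were miR-151-5p at 3.69-fold (3.50 to 3.90) and miR-1843b-3p at 3.13-fold (2.33 to 4.26), whose interval overlapped that of miR-210-5p. Directly below was miR-700-3p at 2.70-fold (2.33 to 3.15), which overlapped it too. These 3 miRNAs were named after their values were seen. miR-210-3p held rank 148, close to the middle of the order: the median log2 ratio of the 298 was -0.080, and the median size of the log2 ratio, whatever its sign, was 0.49.

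**Figure D2:**
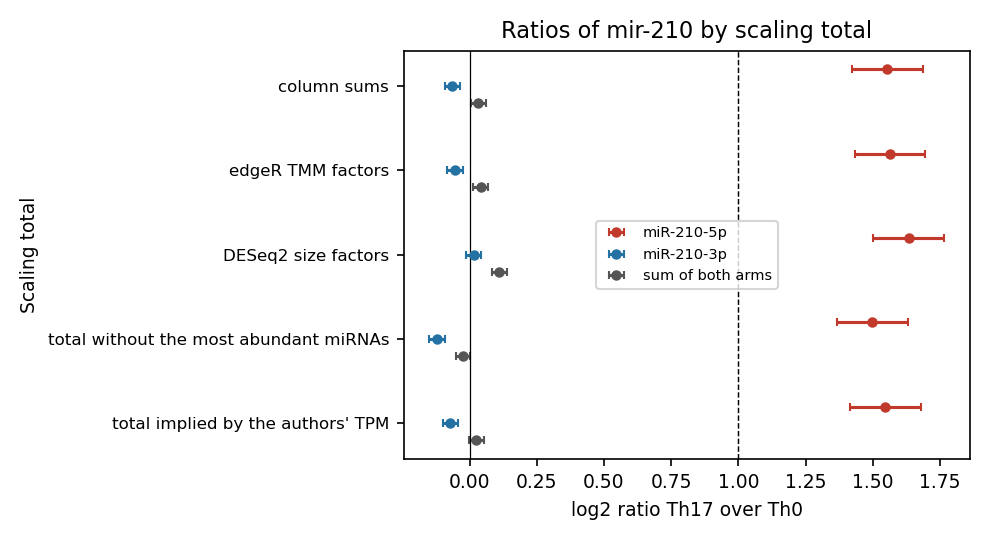
The log2 ratio of Th17 over Th0 (x axis) for miR-210-5p, miR-210-3p and their sum under 5 scaling totals (y axis). Points are ratios of the single libraries, bars exact 95% counting intervals, and the dashed line marks 2-fold. miR-210-5p lay between 1.497 and 1.63 under all 5, whereas miR-210-3p lay between -0.12 and 0.015 and the sum between -0.024 and 0.11, on both sides of 0.

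In the order of levels, both arms were well above the bulk of the listed miRNAs. miR-210-3p ranked 47 by reads in Th0 and 46 in Th17. In Th0 it stood below miR-142a-3p, a miRNA of blood cells, at 2194 CPM and miR-298-5p at 2047 CPM, and above miR-221-3p at 1965 CPM and miR-363-3p at 1945 CPM. Of these 4 neighbours miR-298-5p was the one whose interval overlapped that of miR-210-3p. In Th17 its neighbours were miR-140-3p at 2097 CPM and miR-23b-3p at 2088 CPM above, and miR-148a-3p at 1954 CPM and miR-744-5p at 1905 CPM below. There it could not be told from miR-148a-3p by counting error, and the other 3 differed beyond it.

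miR-210-5p moved up from rank 178 in Th0 to rank 125 in Th17. In Th0 it stood among miR-211-5p at 73.7 CPM, miR-532-3p at 71.1 CPM, miR-1948-3p at 69.4 CPM and miR-3068-3p at 68.8 CPM, and the intervals of all 4 overlapped its own. In Th17 miR-1198-5p at 217 CPM and miR-15b-3p at 211 CPM stood just above it with overlapping intervals. miR-674-3p at 182 CPM and miR-3968 at 174 CPM followed below, and their intervals did not reach it. Each read stands for 1 mature miRNA whatever its length, so no length correction was made.

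**Figure D3:**
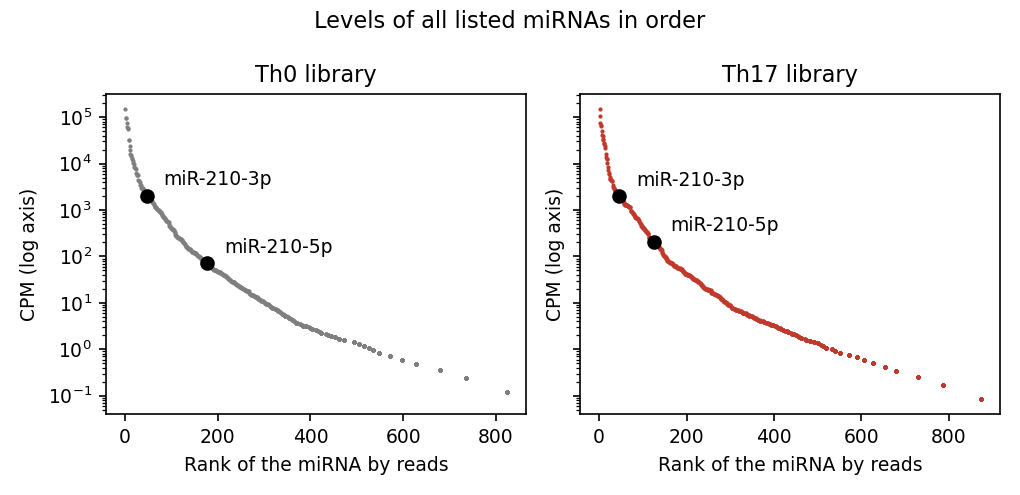
CPM of every listed miRNA (y axis, log scale) against its rank by reads (x axis) in Th0 (left, 986 miRNAs) and Th17 (right, 1012 miRNAs), with both arms of mir-210 in black. miR-210-3p stayed near the same place, rank 47 and then 46, and miR-210-5p moved from rank 178 to rank 125.

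The division of reads between the arms needs no scaling total, because both arms are counted in the same library. Of the reads of the hairpin, the 5p arm took 3.33% in Th0 (exact Clopper-Pearson interval 3.07 to 3.61%) and 9.57% in Th17 (9.21 to 9.94%). The Th17 share was the higher one, by 6.24 percentage points, and the intervals were far apart. Put as a ratio, there were 29.0 reads of miR-210-3p for each read of miR-210-5p in Th0 and 9.45 in Th17. Had the Th0 share held in Th17, 863 of the 25892 reads would have been 5p, and 2478 were. The odds of 5p over 3p were 3.07-fold higher in Th17 (exact conditional interval 2.80 to 3.37). The 3p arm remained the dominant one in both libraries.

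Arm use was then compared over the 173 hairpins with at least 100 reads of both arms together in each library. The odds of 5p over 3p were at least 2-fold higher in Th17, with an interval excluding 1, in 7 hairpins (4.05%), mir-210 among them, and at least 2-fold lower in 12 (6.94%). The median log2 odds ratio over the 167 hairpins with a finite value was -0.064, the median of its size was 0.41, and the central 90% ran from -1.36 to 1.13. mir-210, at 1.62, lay above that range. The other 6 hairpins with a higher 5p share are named here after their values were seen. mir-1199 had a larger odds ratio, on 12 reads of its 3p arm in Th0 and 1 in Th17. mir-200a (2.34), mir-146a (2.23), mir-19a (2.19), mir-3074 and mir-142a were below mir-210. Among the 117 hairpins with at least 20 reads of each arm in each library, a minimum set after the data were seen, mir-210 had the highest odds ratio. In that direction mir-200a was next, and its interval of 1.28 to 4.28 overlapped that of mir-210. Away from 5p, mir-219a had a change larger in size than mir-210, at a log2 odds ratio of -1.84. A minor arm also gained share in mir-30e, where 5p fell from 96.0% to 90.8%, and in mir-155, from 99.6% to 99.2%. These 3 hairpins too were named after their values were seen. By percentage points, 4 hairpins had a larger shift toward 5p than mir-210 and 14 had a larger shift away from 5p. Its shift did not reach a rule of 10 points, which no hairpin met toward 5p.

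**Figure D4:**
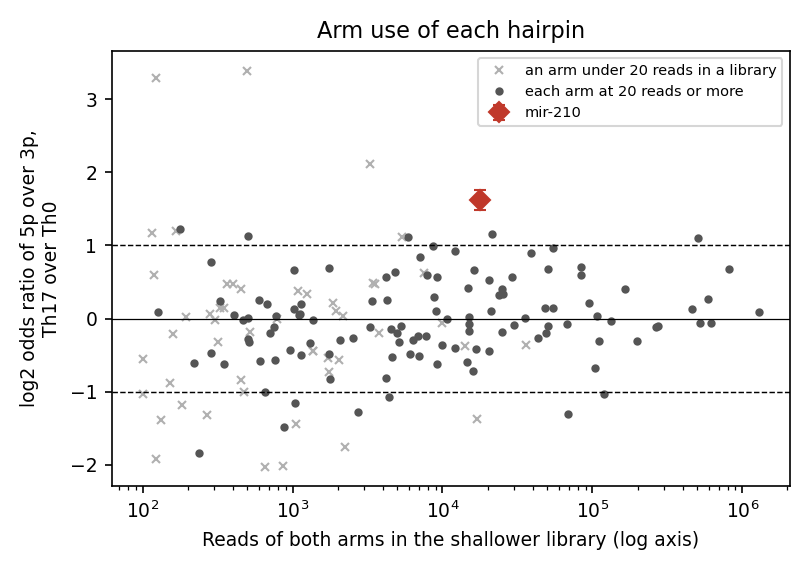
The log2 odds ratio of 5p over 3p reads, Th17 over Th0 (y axis), against the reads of both arms in the library with fewer (x axis, log scale), for the 167 hairpins with a finite value. The dashed lines mark 2-fold. mir-210, drawn with its exact 95% interval, lay at 1.62, above every hairpin with at least 20 reads of each arm, and the points above it had fewer reads in an arm.

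Hairpins that, like mir-210, drew less than 10% of their reads from the 5p arm in Th0 numbered 51. The interval of the odds ratio lay above 1 in 11 of the 51 and below 1 in 6, beside 39 and 38 of all 173 hairpins. Among the 51, the median log2 odds ratio was 0.016, over those with a finite value. Of the 51, 3 were called toward 5p and 2 away from it, beside 4.05% and 6.94% of all 173. The shift of mir-210 was larger than that median, a comparison with no test, since each hairpin has 1 value per group.

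By sign alone, with reads scaled to the listed totals, 121 of the 167 hairpins had both log2 ratios on the same side of 0. In 23 the 5p ratio was above 0 and the 3p ratio below it, mir-210 among them, and in 23 the reverse. With DESeq2 size factors both ratios of mir-210 were above 0, so its place in this count depends on the scaling. Of 75 single-precursor hairpins with both arms at a mean of at least 10 CPM, 8 had 1 arm called higher and the other called in neither direction, mir-210 among them. In 3 hairpins both arms were called higher, in 7 both were called lower, in 6 the call was lower for 1 arm and neither for the other, and in 51 neither arm was called.

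The 5 hairpins nearest to mir-210 by their 5p and 3p log2 ratios, over these 2 libraries, were mir-146a, mir-128, mir-99b, mir-27b and mir-107. mir-146a, whose 5p arm dampens NF-κB signalling, had log2 ratios of 1.02 for 5p and -0.14 for 3p. There the arm called higher was the guide: 5p made up 99.8% of its reads in Th0. mir-128, with a 5p arm of 1.42% of reads in Th0, had log2 ratios of 0.85 and -0.14, and its 5p arm had 123 and 318 reads. mir-27b, an abundant hairpin with 815120 reads of its 3p arm in Th0, had log2 ratios of 0.81 and 0.12. mir-99b was at 1.03 and 0.46. mir-107 was at 2.29 and 0.18, on 1 and 7 reads of its 5p arm. Like mir-210, the hairpins mir-128, mir-27b and mir-107 had 3p as the main arm.

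**Figure D5:**
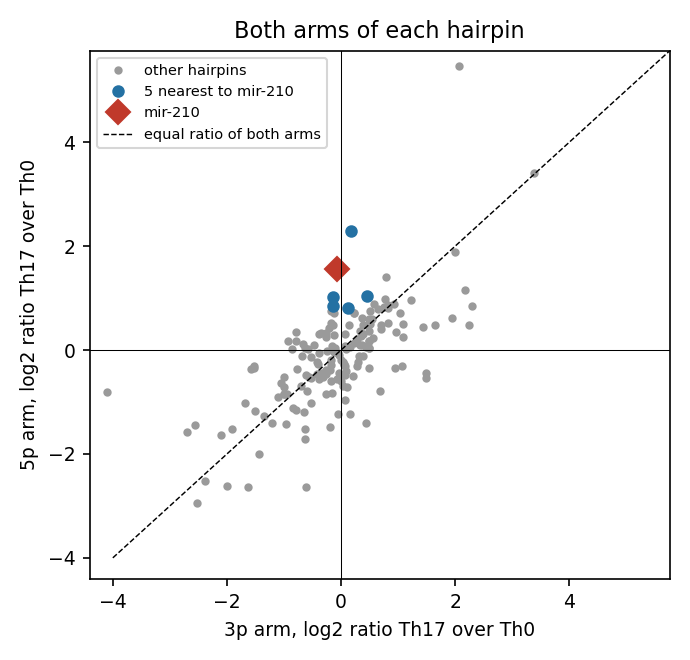
The log2 ratio of Th17 over Th0 for the 5p arm (y axis) against the 3p arm (x axis) of the 167 hairpins with reads of each arm in each library. Points on the dashed line changed alike in both arms. mir-210 (diamond) lay at 1.55 for 5p and -0.063 for 3p, with its 5 nearest hairpins in blue.

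Other miRNAs tied to low oxygen or to Th17 cells in published work were counted beside mir-210. Their lists were chosen with earlier results of these data known, so the counts are no test. Of 19 miRNAs reported to respond to hypoxia or HIF, all at 10 CPM or more, 1 was called higher, 1 lower and 17 neither, against 6.71% and 13.1% over all miRNAs tested, and their median log2 ratio was 0.18. miR-155-5p, which promotes Th17 differentiation, was 2.21-fold higher (2.20 to 2.23). miR-195a-5p was 9.03-fold lower, from 27.2 to 3.01 CPM. miR-181a-5p, a modulator of T cell receptor signalling, stood at 11156 and 22098 CPM, and miR-27a-3p at 5635 and 3088 CPM. miR-210-3p, with a log2 ratio of -0.063, met neither rule, as was the case for those 17.

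miR-210 is reported to repress Hif1a, and so are 9 other miRNAs on a list chosen with earlier results of these data known. Of the 8 that reached 10 CPM, 1 was called higher (miR-155-5p) and 5 lower, against 6.71% and 13.1% over all miRNAs tested, with a median log2 ratio of -1.28. miR-20b-5p fell from 584 to 75.8 CPM, miR-20a-5p from 1087 to 408 CPM, miR-18a-5p from 339 to 121 CPM and miR-33-5p from 31.3 to 11.6 CPM. miR-17-5p was the fifth, at a log2 ratio of -1.15. miR-17-5p, miR-18a-5p and miR-20a-5p come from 1 primary transcript and are not independent. miR-210-3p, at 2043 and 1955 CPM, was called in neither direction.

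Among 11 other miRNAs reported to restrain Th17 cells, 1 was called higher, miR-146a-5p (2552 and 5161 CPM), and 2 lower, miR-20b-5p and miR-18a-5p, with a median log2 ratio of -0.71. These counts are near the shares of 6.71% and 13.1% over all miRNAs tested. Among 11 reported to promote them, 1 was called higher, miR-155-5p, and 2 lower, miR-19b-3p (2623 and 446 CPM) and miR-17-5p, with a median of -0.026, again near 6.71% and 13.1%. miR-17-5p and 1 of the 2 precursors of miR-19b-3p share a primary transcript, so these 2 lower calls are not independent. In the list of promoting miRNAs, let-7e-5p stood at 92.1 and 162 CPM. Of 15 miRNAs induced by T cell activation, 3 were called higher and 5 lower, beside 6.71% and 13.1% over all miRNAs tested, with a median of -0.026. Its members included miR-155-3p, the passenger arm of that hairpin, 4.51-fold higher (4.09 to 4.98). They also included miR-146b-5p, from 675 to 169 CPM, and miR-19a-3p, from 255 to 39.1 CPM. Both arms of mir-155 were among the 3 called higher. miR-17-5p, miR-18a-5p, miR-19a-3p and miR-20a-5p, which share 1 primary transcript, were among the 5 called lower, so these calls are not independent. Several miRNAs stand in more than 1 of these lists, and the lists hold no arm of mir-210.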

How the data were processed

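Libraries prepared with TruSeq small RNA chemistry were sequenced on an Illumina HiSeq 2500, per the labels' protocols. For each library the authors deposited read counts per mature miRNA, as whole numbers, and TPM values. The deposited TPM values are those counts over 1 total per library (9072995 reads in Th0, 13070648 in Th17), of which the listed reads are 92.1% and 91.6%. Per the submitters' processing notes the reference was mm10. The sources used here do not give the aligner, annotation release or mismatches allowed.

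A miRNA absent from 1 table was taken as 0 reads. Counts were divided by the sum of listed reads (CPM), and ratios carry no pseudocount. Alternative totals came from edgeR 4.0.16 (TMM) and DESeq2 1.42.0 in R 4.3.3. Intervals were computed in Python 3.11.15 with scipy 1.17.1. Those of the ratios were tested on simulated Poisson counts with known totals, which hold no PCR duplication or spread between cultures. Those of the odds ratios were compared with scipy's own. Precursors that share a mature miRNA were joined. Sequences are RefSeq's (both arms matched), folded with RNAfold 2.7.2.

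The named miRNAs were both arms, the 5 nearest hairpins, the 2 neighbours on each side by level, and, per list, up to 4 members whose log2 ratio was largest in size. Others are named where the text says so or to identify the members called. The members and lists were chosen with earlier results of these data known.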

Additional observations from a re-analysis of the deposited data

How the results depend on the processing

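The ratio of miR-210-5p stayed above 2-fold under all 4 other scaling totals and with 0.5 or 5 CPM added, with log2 ratios from 1.49 to 1.63. The log2 ratio of miR-210-3p moved to 0.015 with DESeq2 size factors and to -0.121 without the 11 most abundant miRNAs in the total, and that of the summed arms to 0.111 and -0.0245. These shifts follow from the totals alone, and the 5p share and its odds ratio do not use them.

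The numbers of miRNAs called higher and lower were 20 and 39 of 298. With no filter they became 69 and 100 of the 1125 listed in either library. At a mean of at least 100 CPM they were 13 and 15 of 158, and at 1.5-fold 50 and 76 of the 298. The numbers of hairpins called toward and away from 5p, 7 and 12, became 4 and 6 at 1000 reads, and 0 and 4 by a shift of 10 percentage points. With 20 reads of each arm, chosen after seeing the data, they were 6 and 8. Each change comes with fewer or more features passing the rule. No paired analysis was possible because each group is 1 library, and no replicate could be left out. Depth limits the arms of few reads: the odds ratio of mir-1199, with 1 read of its 3p arm in Th17, has an interval from 1.40 to 421.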
